A study of Caenorhabditis elegans with 6 samples.

Results

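The 32 genes described here encode proteins of the small subunit of the cytosolic ribosome in the nematode Caenorhabditis elegans. They were taken by name from the 20222 protein-coding genes of the deposited transcript table: every gene whose symbol is rps- followed by a number, plus ubl-1. The rule used symbols alone, but it was set with earlier results of these data known. The study made small RNA libraries from entire adult males of 2 genotypes, 3 with a prg-1 null allele and 3 wild type. prg-1 encodes the Piwi-class Argonaute that binds piRNAs, and the comparison asks how the siRNAs on protein-coding genes differ when it is missing. Stocks were kept at 25 °C, groups of 20 to 30 males were picked at mid-L4, and the adults were harvested 24 h later. The labels give neither the allele nor its lesion, and they do not say whether libraries of 1 genotype came from separate cultures. The p-values below therefore measure the spread between these samples, which may be technical. Whole animals mix soma and germ line, and in such bulk samples fewer cells of a type and less RNA per cell cannot be told apart.

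The small subunit binds the mRNA, and the codon is read against the tRNA in its decoding site. Its proteins sit on a ribosomal RNA core with a head, a body and a platform, and their mRNAs are among the most abundant in growing cells. 22G-RNAs are siRNAs that RNA-dependent RNA polymerases copy from a target mRNA, which makes them antisense to it and gives them mostly a G at the 5′ end. Worm-specific Argonautes bind them, and depending on the Argonaute the target is silenced or kept active. Here they were counted as antisense reads with a 5′ G and a length of 21 to 23 nt, on the isoform of each gene with the highest mean.

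Depth differed between libraries. Genome-aligned reads numbered 1133888, 1665708 and 2205341 in the prg-1 null libraries, against 1226370, 1799846 and 973971 in the wild type libraries. Protein-coding genes held 173698, 288189 and 373032 22G reads in prg-1 null, against 112546, 303560 and 69112 in wild type, so wild type library 3 was the shallowest by far in this class. Sense reads of rbd-1 and antisense reads of daf-15 filled up to 337188 and 68530 reads of a library, and both were left out of the scaling to genome-aligned reads. On prg-1 itself, the mutated gene, 7, 15 and 9 22G reads were counted in prg-1 null, against 143, 441 and 88 in wild type.

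22G-RNAs on the small subunit genes were higher in every prg-1 null library than in every wild type library. Their reads numbered 670, 1158 and 1274 in prg-1 null, against 150, 312 and 29 in wild type. As a share of all 22G reads on protein-coding genes these were 0.386%, 0.402% and 0.342% in prg-1 null (95% exact binomial intervals 0.357% to 0.416%, 0.379% to 0.426% and 0.323% to 0.361%). In wild type they were 0.133%, 0.103% and 0.042% (0.113% to 0.156%, 0.0917% to 0.115% and 0.0281% to 0.0603%). No interval of 1 genotype reached one of the other, and these intervals cover counting error only. Levels below are CPM, reads per 1000000 22G reads of the tested genes after TMM scaling. The sum over the 32 genes was 4260 ± 94.5 CPM in prg-1 null, against 1045 ± 555 CPM in wild type (SD, n = 3 each), a ratio of 4.08. Wild type library 3 lowered the wild type mean, and without it that mean was 1365 CPM and the ratio 3.12. Per 1000000 genome-aligned reads the sum was 776 ± 62.9 in prg-1 null and 130 ± 77.1 in wild type, a ratio of 5.98, or 4.53 without wild type library 3.

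**Figure D1:**
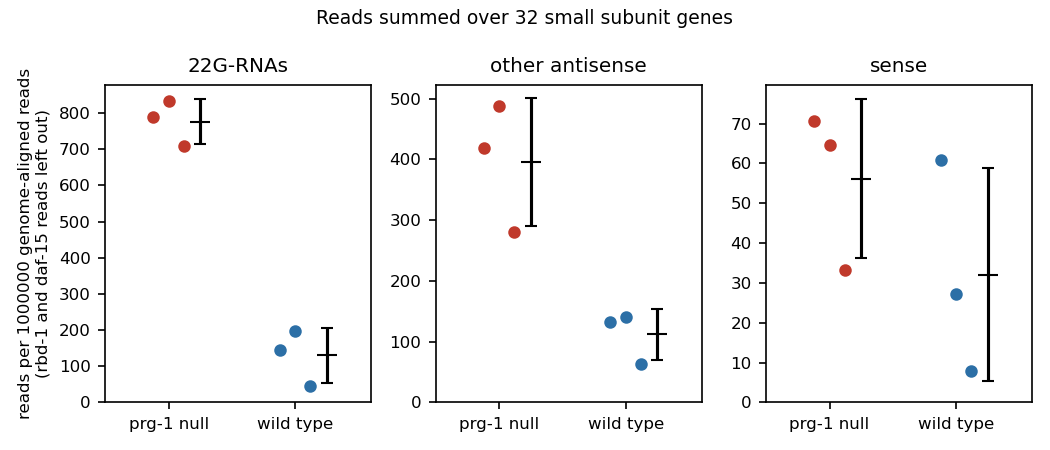
Reads summed over the 32 small subunit genes per 1000000 genome-aligned reads, with a panel each for 22G-RNAs, other antisense reads and sense reads; points are the 3 libraries of prg-1 null (red) and of wild type (blue), and black bars give the mean and SD. The 22G sums lie between 708 and 832 in prg-1 null and between 46.2 and 198 in wild type, whereas the sense sums of the genotypes overlap.

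The mean 22G level was higher in prg-1 null for 31 of the 32 genes, rps-24 being the exception. Of the 23 genes with enough reads to be tested, 14 rose in prg-1 null, none fell, and 9 did not pass the test, while the other 9 were not tested. Over all 2879 genes tested, 357 or 12.4% rose and 938 or 32.6% fell in prg-1 null. The test of the members was not symmetric, since 21 of the 23 passed the filter on low counts in all 3 prg-1 null libraries and only 2, rps-8 and rps-22, in all 3 wild type libraries. Without the filter all 32 could be tested, and 12 rose and none fell, against 2.78% of 12123 genes that rose and 9.86% that fell in that fit. The median log2 fold change was then 1.85 over the 32 genes and -0.15 over all genes. Every prg-1 null library stood above every wild type library in 19 of the 32 genes, against 9.35% of the 12123 genes with a 22G read. The opposite order was seen in 0 of the 32, against 12.6%. All 14 genes that rose were among the 19, as were rps-13, rps-16, rps-22, rps-23 and ubl-1. Each of the 32 genes had a 22G read in each prg-1 null library, whereas 28, 30 and 8 of them had one in wild type libraries 1, 2 and 3.

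**Figure D2:**
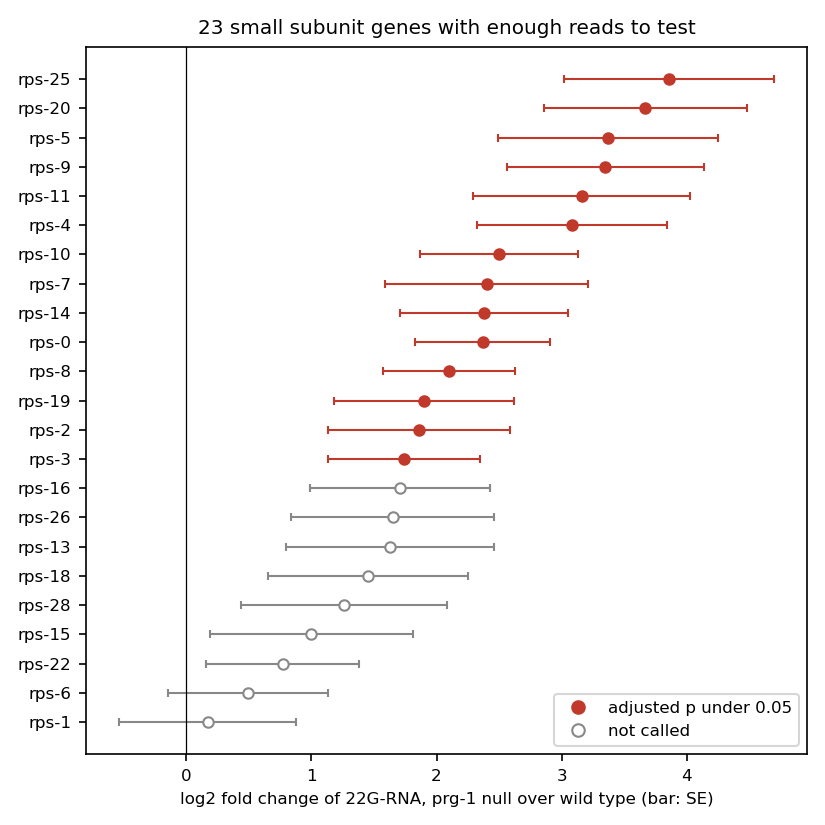
Log2 fold change of 22G-RNA, prg-1 null over wild type, for the 23 small subunit genes that could be tested; points are edgeR estimates, bars their SE, filled red points pass an adjusted p of 0.05. All points lie above 0, and the 14 genes that rose span 1.74 to 3.86.

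Sense reads of sperm genes differed between genotypes in the same libraries. This difference was not tested, and such reads do not measure mRNA levels. Sense reads of the 31 major sperm protein (msp) genes summed to 196 to 256 per 1000000 genome-aligned reads in prg-1 null and to 811 to 2230 in wild type, with 28 of the 31 detected and 3 at 0. 22G reads on the same genes overlapped between genotypes, at 90.6 to 184 in prg-1 null and 71.4 to 211 in wild type. Sense reads of the 6 yolk protein genes, which mark the hermaphrodite intestine, were few, at 1.11 to 5.03 in prg-1 null and 4.78 to 9.64 in wild type, with vit-5 at 0. Sense reads of 3 body muscle genes ranged over 15.3 to 53.9 in prg-1 null and 19.1 to 46.3 in wild type. Sense reads of the intestinal genes elt-2 and ges-1 ranged over 0 to 4.31 in prg-1 null and 0 to 2.89 in wild type. Sense reads of the 2 cuticle genes, col-19 and dpy-17, ranged over 0 to 8.62 in prg-1 null and 0 to 2.89 in wild type. 22G reads on these cuticle genes stood at 663 to 822 in prg-1 null and 1.27 to 2.89 in wild type on the same scale. The part of cell composition in the small subunit result was not tested.

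Levels between genes were compared as CPM per 1000 bases of transcript. In prg-1 null the median of the 32 genes was 176, between 55.7 for rps-24 and 628 for rps-10, and in wild type the median was 45.5, between 0 for ubl-1 and 133 for rps-15. In the prg-1 null order rps-10, at 628 ± 14.1, was followed by rps-8 at 504 ± 100, rps-0 at 466 ± 53.5, rps-14 at 399 ± 30.3, rps-3 at 397 ± 107 and rps-25 at 354 ± 107. The libraries of rps-10, at 614 to 642, lay above the 409 to 608 of rps-8. In the other 30 of the 31 neighbouring pairs the libraries overlapped. Among all protein-coding genes ranked by this measure, 29 of the 32 stood in the top 1000 in prg-1 null and 1 in wild type. The median rank was 482 in prg-1 null and 2266 in wild type. As a description over the 32 genes, levels in log2(CPM + 1) correlated at r = 0.60 to 0.73 between prg-1 null libraries and at r = 0.25 to 0.36 between wild type libraries, whose counts per gene were lower. The mean levels of the genotypes correlated at r = 0.45.

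**Figure D3:**
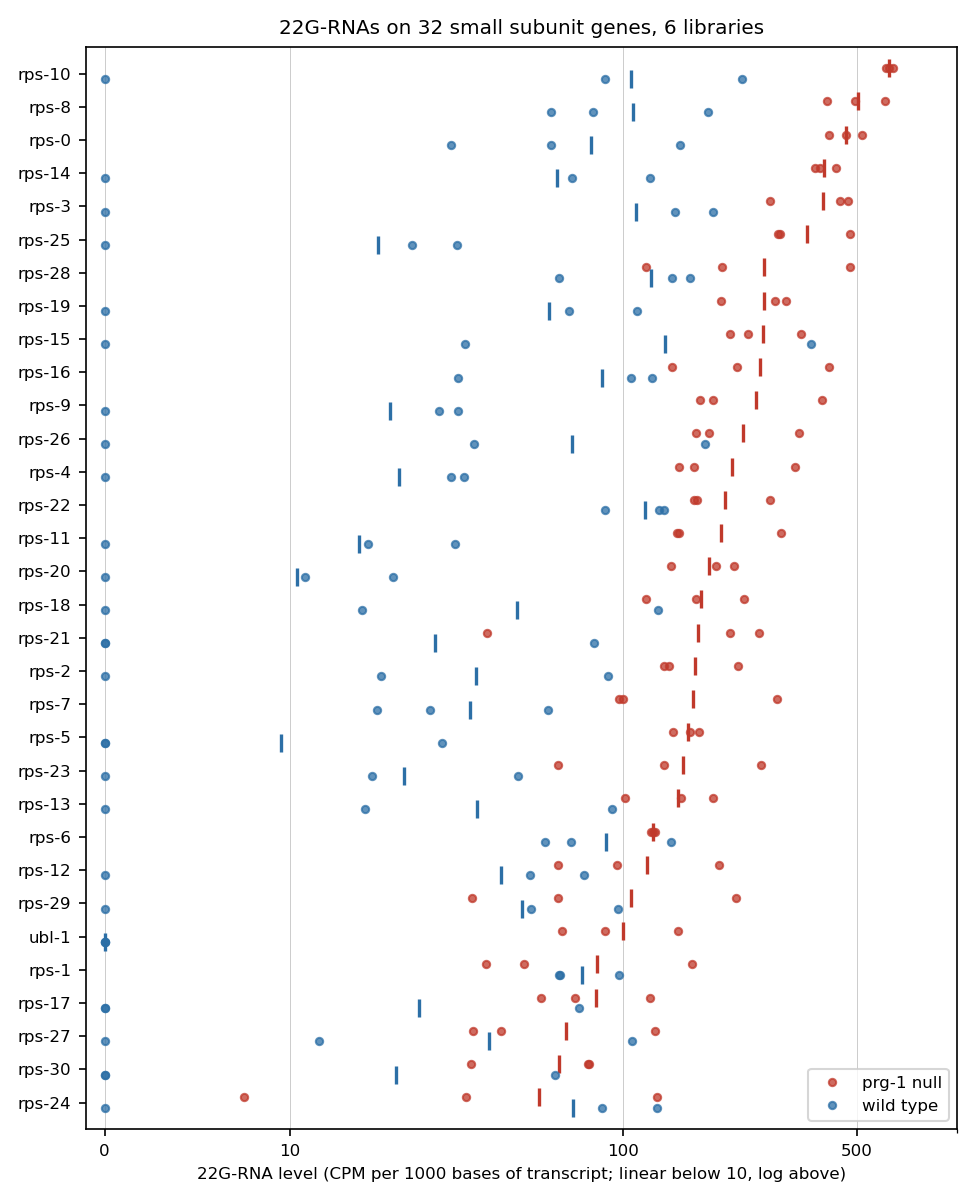
22G-RNA level of each of the 32 small subunit genes as CPM per 1000 bases of transcript, on an axis that is linear below 10 and logarithmic above; points are libraries of prg-1 null (red, upper) and wild type (blue, lower) and ticks their means. Red points lie to the right of blue points in 19 genes, and 24 of the 32 genes have a wild type point at 0 from library 3.

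Several members line the path of the mRNA. RPS-3, on the head at the mRNA entry, had 380, 222 and 360 CPM of 22G-RNA in prg-1 null, against 149, 115 and 0 CPM in wild type. All 3 prg-1 null libraries were above the wild type ones, and 22G-RNAs of rps-3 rose (log2 fold change 1.74 ± 0.61 SE, edgeR adjusted p = 0.0232). This call depended on single libraries, with an adjusted p of 0.0731 without prg-1 null library 3, 0.108 without wild type library 2 and 0.0529 without wild type library 3. RPS-2, on the body at the same entry, had 137, 132 and 220 CPM in prg-1 null, against 18.6, 89.6 and 0 CPM in wild type. Its groups did not overlap either, and rps-2 rose by 1.86 ± 0.73 (edgeR adjusted p = 0.0415). That p was 0.146 without prg-1 null library 3, 0.14 without wild type library 1, 0.0963 without wild type library 3 and 0.0695 with no filter, and without wild type library 2 the log2 fold change was 3.84. RPS-9, the third protein of the entry channel, had 125, 264 and 113 CPM in prg-1 null, against 18.6, 21.3 and 0 CPM in wild type. Prg-1 null library 2 was highest, the groups did not overlap, and rps-9 rose 12.5-fold between means (log2 fold change 3.35 ± 0.79, edgeR adjusted p = 0.00099).

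On the exit side, RPS-5 of the head had 118, 105 and 127 CPM in prg-1 null, against 0, 21.3 and 0 CPM in wild type. The 5 wild type reads all came from library 2, and rps-5 rose by 3.37 ± 0.88 (edgeR adjusted p = 0.00251), with 7.41 when that library was left out and the remaining wild type libraries were at 0. RPS-14 of the platform had 230, 200 and 207 CPM in prg-1 null, against 37.3, 64 and 0 CPM in wild type. Its prg-1 null libraries differed little, none reached the wild type range, and rps-14 rose by 2.38 ± 0.67 (edgeR adjusted p = 0.00462), or 3.27 without wild type library 2. RPS-26, also near the exit, had 162, 79.1 and 86.7 CPM in prg-1 null, against 83.9, 17.1 and 0 CPM in wild type. Wild type library 1 overlapped the prg-1 null range, and rps-26 did not pass the test (1.65, edgeR adjusted p = 0.108), whereas without that library the value was 3.11 and the adjusted p 0.0192. RPS-15, whose tail reaches the decoding site from the head, had 106, 120 and 173 CPM in prg-1 null, against 186, 17.1 and 0 CPM in wild type. The spread within wild type covered the prg-1 null range, and rps-15 did not pass (1.00, edgeR adjusted p = 0.354). Without wild type library 1 its log2 fold change was 3.43 and its adjusted p 0.00668. RPS-23, the protein of the decoding site on the body, was not tested for low counts, with 22, 9 and 21 reads in prg-1 null, against 1, 6 and 0 in wild type, without overlap.

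Among the other proteins of the head, RPS-25, which in yeast and mammals is needed for initiation at viral internal entry sites, had the largest rise of the 14. The gene lies on chromosome IV from 5947093 to 5947605 on the minus strand (WBcel235). Its 22G reads numbered 19, 51 and 35 in prg-1 null, against 1, 3 and 0 in wild type. The groups did not overlap, and rps-25 rose by 3.86 ± 0.84 (edgeR adjusted p = 0.00044). RPS-20, a head protein that is ubiquitinated on stalled ribosomes in yeast and mammals, had 181, 158 and 117 CPM in prg-1 null, against 9.32, 17.1 and 0 CPM in wild type. The wild type values rest on 5 reads, the groups were far apart, and rps-20 rose by 3.67 ± 0.81 (edgeR adjusted p = 0.00051), or 4.63 without wild type library 2. Without that library rps-25 stood at 4.55. RPS-10, another head protein that is ubiquitinated on stalled ribosomes in mammals, had 342, 328 and 334 CPM in prg-1 null, against 121, 46.9 and 0 CPM in wild type. Its prg-1 null libraries were the closest together of the genes that rose, and rps-10 rose by 2.50 ± 0.63 (edgeR adjusted p = 0.00188), with 3.40 without wild type library 1 and an adjusted p of 0.0531 without wild type library 2. RPS-19, whose human gene is mutated in Diamond-Blackfan anaemia, had 106, 154 and 167 CPM in prg-1 null, against 37.3, 59.7 and 0 CPM in wild type. These groups did not overlap, and rps-19 rose by 1.90 ± 0.72 (edgeR adjusted p = 0.0336), a call that did not survive in 4 of 6 fits with a library removed (adjusted p 0.0564 to 0.0958), nor without the filter (0.0831). Without wild type library 2 the value was 2.72.

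The remaining head genes gave no call. For rps-16 and rps-18, whose proteins reach towards the P-site tRNA and the large subunit, the log2 fold changes were 1.71 and 1.45 (edgeR adjusted p = 0.0571 and 0.157). rps-16 was called without prg-1 null library 1 (adjusted p 0.0265) and moved to 1.02 without prg-1 null library 3, and rps-18 was called without wild type library 2 (3.98, adjusted p 0.0199). In the Ensembl annotation rps-16 shares 12 exonic bases with T01C3.11 and rps-18 shares 50 with hhat-2, both on the opposite strand, so reads there could belong to either gene. The value of rps-28 was 1.26 (edgeR adjusted p = 0.233). ubl-1 encodes a ubiquitin-like protein fused to the small subunit protein that mammals make from RPS27A. It had 6, 22 and 15 22G reads in prg-1 null and 0 in each wild type library. Its 56.7 ± 23.5 CPM in prg-1 null were at least 7.81-fold higher than the 7.26 CPM that 3 reads over the wild type libraries stand for. ubl-1 was not tested after the filter and was called higher without it (edgeR adjusted p = 0.006). The untested rps-12, rps-17 and rps-29 averaged 57.3, 38.6 and 37.3 CPM in prg-1 null, against 21, 11.4 and 17.6 CPM in wild type, with overlap.

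On the body and the platform, rps-0 carried most 22G reads in all. RPS-0 belongs to the family of the mammalian laminin receptor precursor and sits on the back of the subunit, and its gene lies on chromosome III from 4753007 to 4754051 on the minus strand. It had 380, 478 and 427 CPM in prg-1 null, against 55.9, 137 and 28 CPM in wild type. Wild type library 2 was the highest of its group and still below every prg-1 null library, and rps-0 rose by 2.37 ± 0.54 (edgeR adjusted p = 0.0007), or 3.29 without that library. rps-8, on chromosome IV from 7312958 to 7313860 on the minus strand, encodes a protein of the lower body and had 342, 282 and 420 CPM in prg-1 null, against 55.9, 124 and 42 CPM in wild type. Here too no libraries overlapped, and rps-8 rose by 2.10 ± 0.53 (edgeR adjusted p = 0.00186), or 2.81 without wild type library 2. 3 more genes of this group rose: rps-4 by 3.08 ± 0.76, rps-11 by 3.16 ± 0.87 and rps-7 by 2.40 ± 0.81 (edgeR adjusted p = 0.00152, 0.00396 and 0.017). Their levels averaged 178, 107 and 114 CPM in prg-1 null, against 17.9, 8.8 and 24.5 CPM in wild type. rps-7 missed the threshold without wild type library 1 (adjusted p 0.0673), without wild type library 2 (0.123) and with no filter (0.0517), and rps-11 stood at 4.11 without wild type library 2.

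The other genes of the body and platform showed no call. rps-22 had 174, 105 and 103 CPM in prg-1 null, against 55.9, 81.1 and 84 CPM in wild type. Its groups lay close without overlapping, and the log2 fold change was 0.77 (edgeR adjusted p = 0.342). RPS-6, the main ribosomal substrate of S6 kinase in mammals, had 99.6, 97.9 and 100 CPM in prg-1 null, against 112, 46.9 and 56 CPM in wild type. The highest library was a wild type one, and the log2 fold change was 0.49 (edgeR adjusted p = 0.584). rps-1 had 43.6, 139 and 33.4 CPM in prg-1 null, against 83.9, 55.5 and 56 CPM in wild type, with a log2 fold change of 0.17 (edgeR adjusted p = 0.881). Its sign followed prg-1 null library 2, without which the value was -0.80. The value of rps-13 was 1.63 (edgeR adjusted p = 0.12), and it was called without wild type library 2 (3.75, adjusted p 0.0291). The 4 genes rps-21, rps-24, rps-27 and rps-30 were not tested. They averaged 57.3, 24.8, 23.6 and 30.6 CPM in prg-1 null, against 9.32, 31.4, 13.9 and 9.96 CPM in wild type, with overlap in each. rps-24 had 9, 4 and 1 reads in prg-1 null, against 6, 9 and 0 in wild type, and the genotypes overlapped.

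Calls were found in both parts of the structure and on several chromosomes. Of 14 head genes 6 rose, 4 did not pass and 4 were not tested, and of 18 body and platform genes 8 rose, 5 did not pass and 5 were not tested. Median levels of head genes were 125 CPM in prg-1 null, against 24.1 CPM in wild type, and those of body and platform genes 108 CPM in prg-1 null, against 27.9 CPM in wild type. The assignment to head or body came from general knowledge of yeast and mammalian ribosomes. The genes lie on 5 chromosomes, with 4 of 7 tested genes higher on I, 1 of 1 on II, 3 of 6 on III, 6 of 8 on IV and 0 of 1 on V. The share of all tested genes that rose, 12.4%, was not split by chromosome. Their transcripts span 266 to 998 bases with a median of 543, against 1089 for all protein-coding genes. Mean 22G level and transcript length, both on a log2 scale, correlated over the 32 genes at r = 0.59 in prg-1 null and r = 0.27 in wild type. In 6 of the genes (rps-4, rps-12, rps-13, rps-23, rps-29 and ubl-1) the annotation places 9 snoRNA genes on the same strand outside the exons. The exon sequence of rps-20 holds the microRNA gene cel-mir-354 on the same strand, which bears on sense reads and not on antisense reads. rps-4 shares 21 exonic bases with Y43B11AR.3 on the same strand.

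Genes of the same machinery were set beside these, as lists chosen by symbol. Of 50 large subunit genes, 30 were tested for 22G-RNA, and 21 rose and 1, rpl-42, fell, with a median log2 fold change of 2.02. For the 23 tested small subunit genes that median was 1.90, and for all tested genes -0.11. Those 23 passed the filter mostly through the prg-1 null libraries. Without the filter the median was 1.85 over the 32 genes and -0.15 over all genes. How the genes of the other lists passed the filter was not counted. Of 39 translation factor genes 20 were tested, and 4 rose and 1 fell (median 0.73). Of 21 ribosome biogenesis genes 11 were tested, and 1 rose and 2 fell (median 0.27). None of 27 genes of the mitochondrial small subunit had enough reads to test, and the 3 tested of 39 mitochondrial large subunit genes all fell. Differences between these lists were not tested. The ratio of small to large subunit 22G reads was 0.644, 0.568 and 0.561 in prg-1 null, against 0.345, 0.324 and 0.196 in wild type. Much of that gap came from rpl-42, which had 0, 18 and 2 reads in prg-1 null, against 136, 399 and 51 in wild type. With rpl-42 left out, the ratio was 0.593 ± 0.0444 in prg-1 null and 0.451 ± 0.134 in wild type (SD, n = 3 each), and the prg-1 null values of 0.573, 0.561 and 0.644 lay close to the 0.553 of wild type library 2.

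Antisense reads outside the 22G class also stood higher. They numbered 355, 679 and 504 on the 32 genes in prg-1 null, against 138, 220 and 40 in wild type. Per 1000000 genome-aligned reads these were 395 ± 106 in prg-1 null and 112 ± 42.1 in wild type (SD, n = 3 each), a ratio of 3.52, and no library of 1 genotype reached the other. After TMM scaling the ratio was 3.16, or 2.91 without wild type library 3. The TMM factor of that library was 0.5386 in this class, against 1.001 to 1.22 in the others. Of 13 members tested in this class 3 rose, none fell and 10 did not pass, against 9.06% of 2802 genes that rose and 14.5% that fell. The prg-1 null libraries all stood above the wild type libraries in 18 of the 32 genes, against 7.38% of the 14695 genes with such a read, and the opposite order was seen in 0 of the 32, against 7.94%. Without the filter 3 of the 32 rose and none fell, against 1.7% of all genes that rose and 4.56% that fell. These were not the same 3 genes. rps-19 was called in both fits (edgeR adjusted p = 0.00374 without the filter). rps-11 and rps-14 were called after the filter and not without it (edgeR adjusted p = 0.0502 and 0.104). rps-19 had 15, 35 and 34 such reads in prg-1 null, against 4, 2 and 0 in wild type, and rose by 3.34 ± 0.74 (edgeR adjusted p = 0.00517), or 4.25 without wild type library 1. rps-11 had 9, 19 and 16 reads in prg-1 null, against 0, 3 and 0 in wild type, and rose by 3.44 ± 1.01 (edgeR adjusted p = 0.0269). rps-14 had 24, 25 and 25 reads in prg-1 null, against 4, 11 and 0 in wild type, and rose by 2.12 ± 0.70 (edgeR adjusted p = 0.0463). These last calls were fragile. That of rps-11 was lost without prg-1 null library 1, wild type library 1 or wild type library 3 (adjusted p 0.0635, 0.108 and 0.0526). It was also lost with no filter and with replicate number as a block (edgeR adjusted p = 0.0502 and 0.0992). The log2 fold change of rps-11 was 6.60 without wild type library 2. That of rps-14 was lost in 10 of 13 alternatives, 5 of them fits without a library, with adjusted p up to 0.164, and its value was 2.94 without wild type library 2. The count of 3 became 1 without prg-1 null library 1, prg-1 null library 3 or wild type library 1 and 5 without wild type library 2. rps-17 stood apart in level, with 9, 7 and 10 22G reads but no other antisense read in prg-1 null.

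By length, antisense reads on the small subunit genes peaked at 22 nt in prg-1 null. Pooled over wild type, reads starting with G also numbered most at 22 nt, with 222 against 177 at 21 nt. In wild type libraries 1 and 3 those of 21 nt were slightly more, 61 against 56 and 14 against 13. The 22G class made up 65.4%, 63% and 71.7% of the antisense reads in prg-1 null, against 52.1%, 58.6% and 42% in wild type. Over all protein-coding genes the class made up 51.6% ± 3.59 in prg-1 null and 40.2% ± 10.8 in wild type (SD, n = 3 each). 26G-RNAs, a separate class that starts siRNA production in the germ line and in embryos, were counted as antisense reads with a 5′ G and a length of 25 to 27 nt. They made up 4.49%, 6.42% and 2.92% of the antisense reads on the members in prg-1 null, against 19.4%, 13% and 8.7% in wild type, without overlap. Over all protein-coding genes these shares were 8.08%, 9.23% and 7.08% in prg-1 null, against 15.9%, 10.9% and 4.84% in wild type, which overlapped. On the members, the level of 26G-RNAs did not follow their share. Per 1000000 genome-aligned reads they stood at 54.1, 84.8 and 28.9 in prg-1 null, against 54, 43.9 and 9.57 in wild type, which overlapped, so the lower share accompanied a higher total of the other antisense reads. rps-0 alone held 0, 29 and 12 26G reads in prg-1 null, against 25, 19 and 2 in wild type, where the 32 genes together held 56, 69 and 6. Reads starting with G of any length were 82.7% ± 1.54 of the antisense reads in prg-1 null and 78.4% ± 8.9 in wild type.

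**Figure D4:**
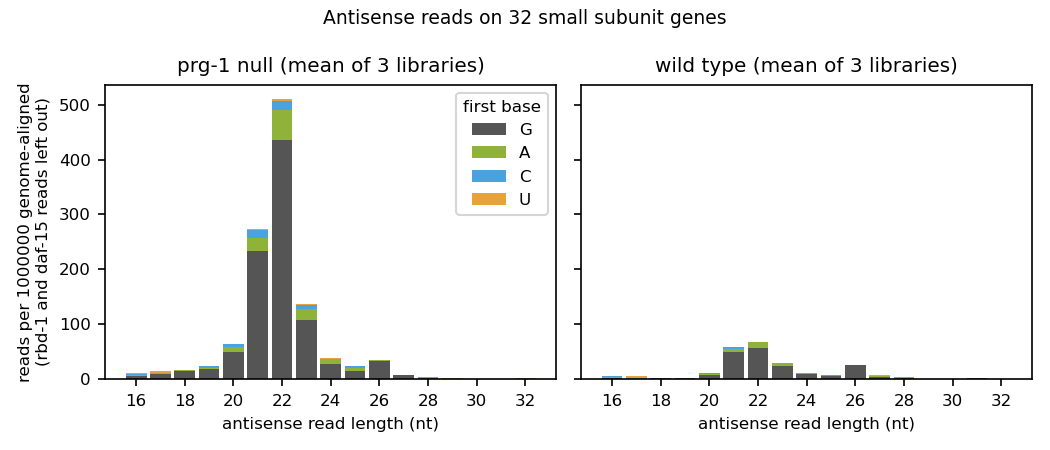
Antisense reads on the 32 small subunit genes by read length in nt (x axis) and 5′ base (colour), as the mean of 3 libraries per 1000000 genome-aligned reads, with prg-1 null on the left and wild type on the right. The bar at 22 nt, mostly reads starting with G, is the tallest in both genotypes and is higher in prg-1 null. A smaller set at 26 nt is visible in both genotypes.

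Sense reads on the small subunit genes were few. They numbered 60, 90 and 60 in prg-1 null, against 63, 43 and 5 in wild type. Per 1000000 genome-aligned reads they stood at 70.6, 64.7 and 33.3 in prg-1 null, against 60.8, 27.3 and 7.97 in wild type, and the genotypes overlapped. None of the 32 genes passed the filter on low counts in this class, in which 687 genes were tested and 11.5% rose and 13.5% fell. Without the filter 31 members could be fitted and 0 were called by edgeR (0.376% of all genes rose and 0.693% fell), while 3 (rps-0, rps-24 and rps-25) had an unadjusted p under 0.05, all higher in prg-1 null, against 7.03% of 13571 genes in either direction. Each of these had an adjusted p of 0.592, and rps-25 owed its value to 17 reads in prg-1 null library 2 with 0 in the other prg-1 null libraries. The most sense reads fell on rps-12, with 6, 9 and 5 in prg-1 null, against 4, 7 and 2 in wild type. rps-30, whose mammalian counterpart is made as a fusion to a ubiquitin-like protein, had 2, 6 and 2 in prg-1 null, against 12, 5 and 1 in wild type. rps-3 had 4, 0 and 6 in prg-1 null, against 6, 6 and 0 in wild type, and ubl-1 had 0, 8 and 8 in prg-1 null, against 4, 1 and 0 in wild type. In each of these 4 genes the genotypes overlapped. Small RNA libraries hold short fragments of mRNAs and do not measure mRNA levels. Over the 50 large subunit genes, sense reads per 1000000 genome-aligned reads were 297 ± 41 in prg-1 null and 52.4 ± 23.3 in wild type (SD, n = 3 each), without overlap. Only 2 of these 50 genes had enough sense reads to test, and 2 rose, so the sum does not describe each gene.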

How the data were processed

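Small RNA libraries of adult males (3 prg-1 null, 3 wild type) were analysed. Read classes came from 1 table of expected counts per transcript, which the authors deposited as whole, unnormalized numbers. Genome-aligned depths came from a further deposited table of alignments to the genome. The submitters' processing notes name cutadapt 3.7, FastQC 0.12.0 and the genome build WBcel235. The aligner, like the handling of reads matching several places, was not given in the sources used here. Lists by length and first base, deposited beside each count, summed to it in every row. Counts were rounded, which changed none. The genotypes were set against each other with edgeR 4.0.16 under R 4.3.3 (quasi-likelihood test, filterByExpr, TMM, Benjamini-Hochberg 0.05 over all genes tested), separately for 22G, other antisense and sense reads, on the isoform with the highest mean 22G count. SE is the log2 fold change over the square root of F. The fits were tested on simulated counts. Sums, intervals and figures used Python 3.11.15, pandas 2.3.3, scipy 1.17.1 and matplotlib 3.10.9. Overlaps came from Ensembl release 115. Depths and intervals are given with the values. Alternatives were DESeq2 1.42.0, other scalings and filters, a replicate block, summed isoforms, other read classes and leaving out each library. Sums without wild type library 3 and ratios without rpl-42 were added after seeing the data. The members and lists were chosen with earlier results of these data known. Named in full were the 8 members with the highest mean level, the 4 largest rises, ubl-1 and the 4 with most sense reads, while the others are given more briefly.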

Additional observations from a re-analysis of the deposited data

How the results depend on the processing

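The 14 small subunit genes higher in 22G-RNA became 11 to 16 when a library was left out and 10 to 18 under the other alternatives, and none was lower in any of them. The number of members tested also changed, so these counts are not on 1 base. With 22-nt reads alone 10 of 12 tested members rose, and 306 of 1676 genes rose and 672 fell. With all antisense reads 18 of 29 rose, and 444 of 4678 genes rose and 1051 fell. With no filter 12 of 32 rose, and without a library 19 to 29 members were tested. The calls of rps-0, rps-4, rps-5, rps-8, rps-9, rps-11, rps-14, rps-20 and rps-25 held under every alternative in which the gene was tested, and those of rps-2, rps-3, rps-7, rps-10 and rps-19 were lost in at least 1. Of 325 alternative values of single genes, 292 kept direction and call. Scaling to genome-aligned reads moved the median log2 fold change of all genes from -0.11 to 0.44, a shift of 0.55, and gave 578 genes higher and 851 lower (40.4% of calls higher, against 27.6%) and 18 members higher. The member median then stood 1.95 above that of all genes, against 2.01. The sign of rps-1 in 22G-RNA turned to -0.00 with at least 10 counts in 3 libraries, -0.01 with the replicate block and ranged over -0.80 to 0.42 without a library, -0.80 without prg-1 null library 2. In other antisense reads rps-1 turned to -0.01 with DESeq2 and ranged over -0.47 (without wild type library 1) to 0.88, and rps-27 (0.14) ranged over -0.30 (without wild type library 1; -0.05 without wild type library 3) to 1.19. The 3 members called in other antisense reads became 1 with the replicate block and 1 to 5 without a library, and the 407 genes lower in that class became 670 without a filter. Leaving out a library gave 288 to 401 genes higher and 785 to 1204 lower in 22G-RNA, and 178 to 272 higher and 374 to 498 lower in other antisense reads. The cause of these shifts was not tested. Samples with the same number showed no shared deviation (r = -0.03, 0.04 and 0.00 over tested genes). The labels do not say whether the numbers pair the samples, and these values cannot exclude it. The replicate block left 14 members, 306 genes higher and 890 lower in 22G-RNA. In sense reads only the fit without a filter could test members. Leaving out wild type library 2 moved 11 of the 23 tested 22G values by over 1.5 times, wild type library 1 moved 3, prg-1 null libraries 2 and 3 moved 1 each, and prg-1 null library 1 and wild type library 3 moved 0. Wild type library 3 held 29 22G reads on the 32 genes, which limits what its values show.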
